A study of Mus musculus with 15 samples.

Results

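The 10 genes described here encode lysosomal proteases: the cathepsins Ctsa, Ctsb, Ctsc, Ctsd, Ctsh, Ctsl, Ctso, Ctss and Ctsz, and the asparaginyl endopeptidase legumain, Lgmn. All 10 were found by symbol among the 13834 lines of the deposited expression table, and all 10 passed the filter on low values that left 13175 genes for testing. RNA was sequenced from microglia, the resident macrophages of the brain, sorted by flow cytometry from mouse brain, in 15 libraries. The PLX5622 group (n = 4) came from 18-month-old mice treated with PLX5622, an inhibitor of the CSF1 receptor, on whose signal microglia depend. AF-high (n = 5) and AF-low (n = 3) cells came from untreated 18-month-old mice and had high or low autofluorescence. The young group (n = 3) came from untreated 3-month-old mice. The sources used here give neither strain, sex, the dose and schedule of PLX5622, nor any autofluorescence gate for the PLX5622 and young cells. Nor do they say whether a library came from 1 animal or a pool, which markers the sort used, or whether the PLX5622 cells had survived the drug or grown back after it. The titles call libraries of a group biological replicates, and p-values measure only the spread between these libraries.

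Lysosomal proteases are made as inactive precursors, sorted to the lysosome and activated there at low pH, where they degrade proteins taken up from outside or delivered by autophagy. Microglia use them to digest cell debris, and cathepsin S and legumain also take part in preparing antigens for MHC class II. The autofluorescence of aged cells is attributed in large part to lipofuscin, a residue of incomplete digestion that gathers in lysosomes.

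Levels are in TPM, a unit scaled to the library's total and to transcript length, so that levels of different genes can be set side by side. The table holds no read depth, so counting error is unknown. Differences are of log2(TPM + 1) with the SE from limma, fitted over all 15 libraries, and adjusted p-values are Benjamini-Hochberg over the 13175 genes. The fit pools each gene's spread over the 4 groups, so PLX5622 against young also carries the spread of AF-high and AF-low libraries. In turn, AF-high against AF-low draws on the young and PLX5622 libraries, so its SE and p-values can be too small. With only both groups in the fit, which also has fewer libraries, the smallest adjusted p of a member there was 0.999 (limma), against 0.479. Over all genes, root mean square deviations from the group's mean were 0.364 to 0.56 log2 units in AF-high and AF-low libraries. They were 0.228 to 0.264 in young and PLX5622 libraries. The median gene lay between 0.02 and 0.11 below 0 in the 6 comparisons, the largest shift being that of PLX5622 against young cells (-0.11). The libraries carried the RNA of microglia, with P2ry12 between 1183 and 3141 TPM and Tmem119 between 365.6 and 650.6 TPM. The 10 microglial markers summed to 8620 to 9271 TPM in PLX5622 and 8121 to 12010 TPM in AF-high libraries. Their sums were 6587 to 9170 TPM in AF-low and 10080 to 11700 TPM in young libraries. In AF-low against young cells 0 of 10 were above 0 (median -0.35, all genes -0.04). In AF-high against AF-low 10 of 10 were (median 0.3, all genes -0.04). Summed markers of border-associated macrophages, relatives of microglia at vessels and meninges (9 of 10 listed), lay between 173.8 and 224.4 TPM in PLX5622, between 313.1 and 444.9 TPM in AF-high, between 455.4 and 590.6 TPM in AF-low, and between 236 and 302.2 TPM in young libraries. Choroid plexus markers (5 of 8 listed) summed to 8788 and 5797 TPM in young 1 and 2, against 34.57 to 375.3 TPM in the other libraries. Astrocyte markers (7 of 8 listed) summed to 240.8 and 266.1 TPM in young 1 and 2, against 77.9 to 142.1 TPM in the others. Endothelial markers (4 of 8 listed) summed to 147.7 TPM in AF-low 1, against 41.06 to 85.62 TPM in the others. Of the monocyte and neutrophil markers 2 of 8 were listed, and their sum stayed at or below 8.292 TPM. AF-high 2 and 3 deviated most from their group's mean over all genes (root mean square 0.56 and 0.524 log2 units, against 0.228 to 0.472 in the other libraries). The part of these differences in the results below was not tested. In sorted bulk samples, fewer cells of a kind and less RNA per cell cannot be told apart.

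Together the 10 genes supplied 0.984% to 1.48% of all listed TPM in a library. Their sum was 12650 ± 1099 TPM in PLX5622 (SD, n = 4), 12630 ± 1517 in AF-high (n = 5), 11150 ± 1667 in AF-low (n = 3) and 12640 ± 844.5 TPM in young libraries (n = 3). The lowest sum was that of AF-low 1 (9440 TPM) and the highest that of PLX5622 4 (14250 TPM). Every pair of groups overlapped.

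Ctss, which encodes the elastin- and invariant chain-cleaving cathepsin S, was the highest member in 15 of 15 libraries and supplied 35.1% to 46.9% of the members' sum. It ranked between 6 and 18 among all listed genes of a library. Ctsd, the aspartic protease cathepsin D, came next in 15 of 15 libraries, with 19.4% to 30.8% of the sum. Ctsl, the endopeptidase cathepsin L, averaged 1110 TPM over the 15 libraries and exceeded Lgmn in 14 of them. Lgmn and Ctsh, the aminopeptidase cathepsin H, could not be ordered: they averaged 761.3 and 761.2 TPM, and Lgmn was the higher in 7 of 15 libraries. Ctsh exceeded Ctsb in 15 of 15. Ctsb, Ctsa and Ctsz followed at 512.9, 446.3 and 399.9 TPM. Their neighbours differed by less than 1 SD of the log2 ratio or by about as much as it: Ctsb was above Ctsa in 13 of 15 libraries (mean log2 ratio 0.23, SD 0.23) and Ctsa above Ctsz in 10 of 15 (0.14, SD 0.35). Ctsc, the dipeptidyl peptidase cathepsin C, averaged 279.2 TPM and was below Ctsz in 14 of 15. Ctso, a little-studied papain-like cathepsin, stood far below the rest, averaging 40.1 TPM and lying below Ctsc in 15 of 15 libraries. On GRCm38 (GENCODE M21), Ctss and Ctso both lie on the plus strand of chromosome 3, at 95526786 to 95556403 and 81932601 to 81956725. Ctsl is on chromosome 13 (64359337 to 64370890, minus), Ctsb on chromosome 14 (63122462 to 63145923, plus) and Ctsh on chromosome 9 (90054152 to 90076089, plus). Ctsz is on chromosome 2 (174427493 to 174439039, minus) and Ctsc on chromosome 7 (88278085 to 88310888, plus).

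**Figure D1:**
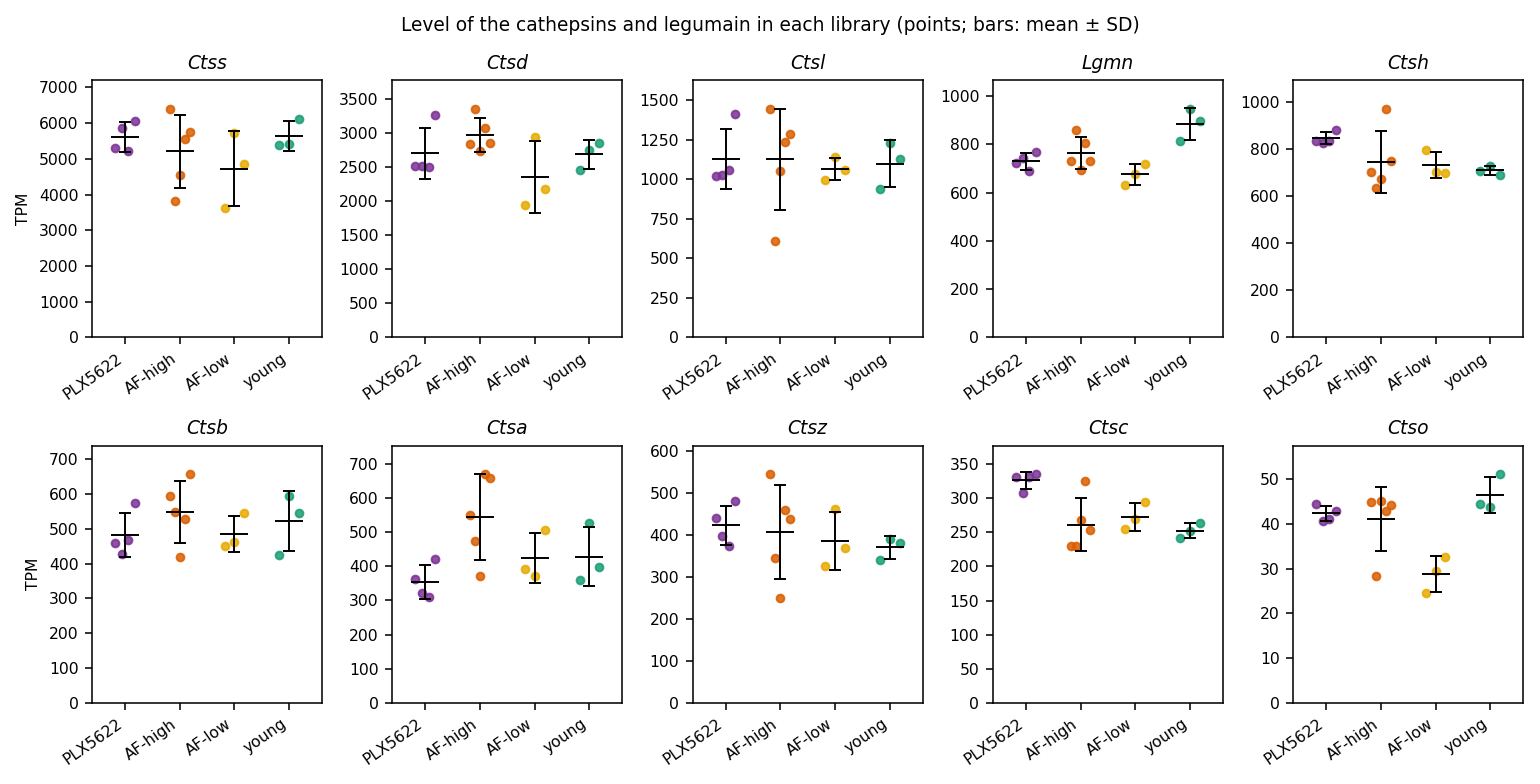
TPM of each of the 10 genes (vertical axes start at 0 and differ between panels) in the 4 groups; points are libraries, horizontal bars the mean and whiskers the SD. Ctso of the 3 AF-low libraries lies between 24.58 and 32.53 TPM, below all young and PLX5622 libraries, and Ctsc of the 4 PLX5622 libraries lies between 308 and 335.2 TPM.

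None of the 10 genes passed the test in any of the 6 comparisons of groups (limma, adjusted p under 0.05). For AF-high against AF-low, 0 of 10 members and 0% of all genes were called. At an unadjusted p under 0.05 there were 2 members, Ctso and Ctsd, against 8.21% of all genes. AF-high against young had 0 members and 0% of genes called, and 0 members at an unadjusted p under 0.05 against 11% of genes. AF-low against young had 0 members called against 0.0455% of genes, and 2 members (Ctso and Lgmn) against 11.8% of genes at the unadjusted level. PLX5622 against AF-high had 0 members called against 0.63% of genes, and 2 (Ctsa and Ctsc) against 15.3% unadjusted. PLX5622 against AF-low had 0 against 0.144%, and 1 (Ctso) against 14.3% unadjusted. PLX5622 against young had 0 against 0.0911%, and 2 (Ctsc and Lgmn) against 5.23% unadjusted. With young 1 and 2 left aside, 0 of 10 members passed in each comparison.

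Over all 60 differences (10 genes in 6 comparisons) the 95% confidence intervals, which are not adjusted for the number of tests, ran from 0.481-fold to 1.87-fold. The 2 ends belonged to Ctso, in AF-low against young and in PLX5622 against AF-low. The median of the 10 differences was 0.15 between AF-high and AF-low, where that of all genes was -0.04. It was 0.05 between AF-high and young (all genes -0.08) and -0.07 between AF-low and young (all genes -0.04). For PLX5622 it was 0.05 against AF-high (all genes -0.02), 0.18 against AF-low (-0.05) and 0 against young (-0.11). Comparisons that share a group are not independent of each other. The PLX5622 and young mice differ in both age and treatment, which cannot be told apart in that comparison.

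**Figure D2:**
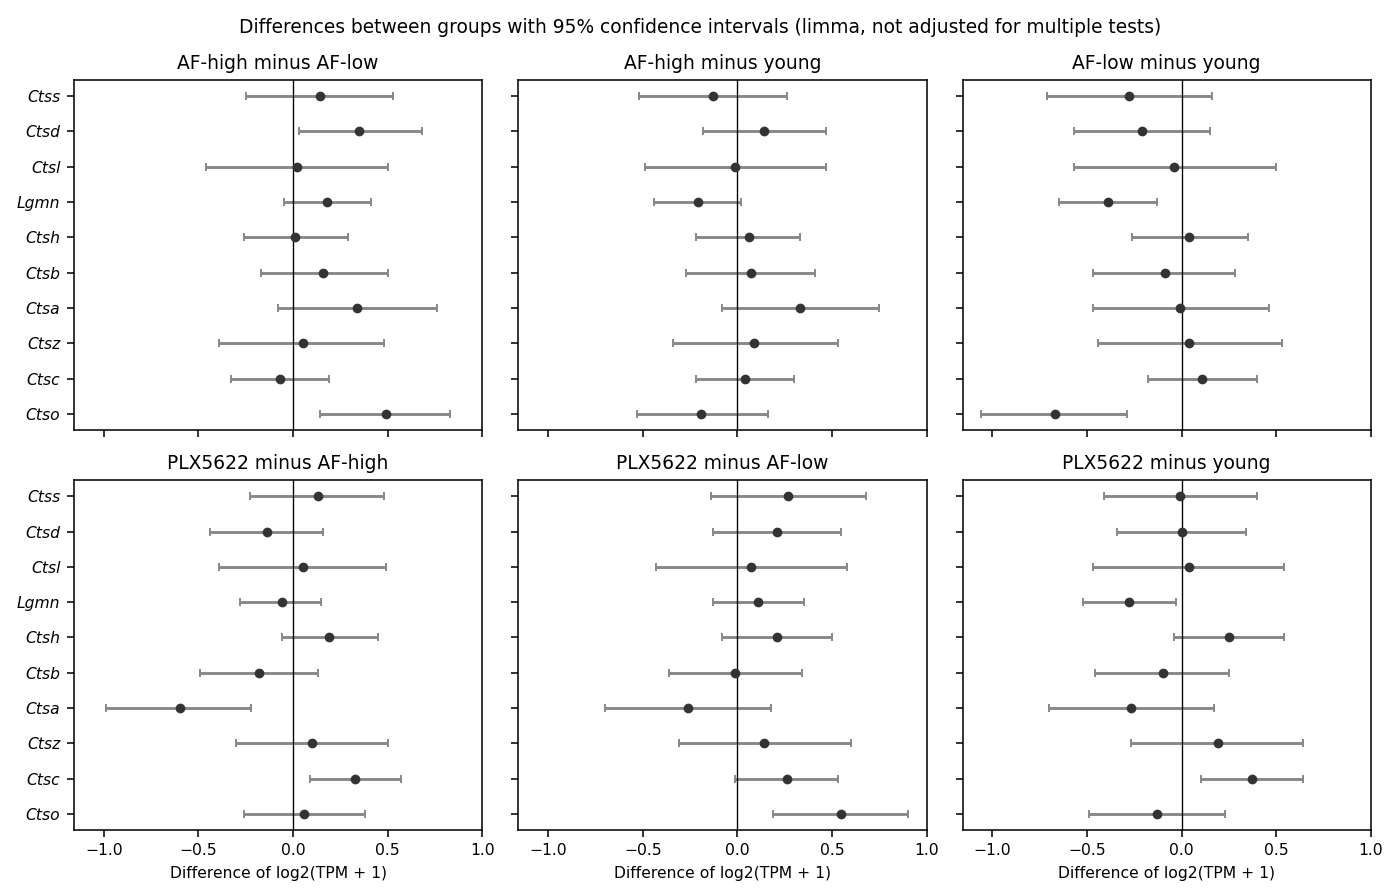
Differences of log2(TPM + 1) for the 10 genes in the 6 comparisons, first-named group minus second, with 95% confidence intervals from limma. Most intervals include 0; those farthest from it are Ctso in AF-low minus young (-0.67) and Ctsa in PLX5622 minus AF-high (-0.60), and neither passed adjustment over all genes.

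Among the cysteine endopeptidases, Ctss was at 5308, 5851, 5221 and 6071 TPM in PLX5622 1 to 4, and at 6400, 3826, 4552, 5544 and 5750 TPM in AF-high 1 to 5. It was at 3631, 5710 and 4842 TPM in AF-low 1 to 3 and at 5376, 5416 and 6127 TPM in young 1 to 3. The lowest values, in AF-low 1 and AF-high 2, lay in both old gated groups, and every pair of groups overlapped. PLX5622 and AF-low cells differed in Ctss by 0.27 ± 0.19 (SE; 95% interval -0.14 to 0.68, limma adjusted p = 0.545); under quantile normalization this difference was -0.02. Ctsl spread widest of all members, with an SD within groups of 0.33 log2 units. It was at 609.4 TPM in AF-high 2, against 1052 to 1447 TPM in the other 4 AF-high libraries, while PLX5622 libraries had 1021 to 1414, AF-low 996.9 to 1139 and young 940.2 to 1231 TPM. The group means of Ctsl lay closer together than those of any other member (SD of group means 0.03 log2 units). Ctsb, cathepsin B, which can also act as a carboxypeptidase, ranged from 417.5 to 656.5 TPM with both ends in AF-high libraries. It averaged 483 ± 63.53 TPM in PLX5622 and 548.2 ± 88.39 TPM in AF-high cells (SD; difference -0.18 ± 0.15, limma adjusted p = 0.609). Against AF-low cells (485.7 ± 52.03 TPM) the PLX5622 difference was -0.01 ± 0.17 (adjusted p = 0.982), and its sign turned under quantile normalization (0.19) and median centring (0.07).

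The largest differences of AF-low cells from each other group, among the 10 members, were those of Ctso. It was at 24.58, 29.59 and 32.53 TPM in AF-low 1 to 3, against 44.39, 43.87 and 51.16 TPM in young 1 to 3. Every AF-low library was below every young library, as was the case for 11.1% of all genes, and the mean difference was -0.67 ± 0.18 (0.627-fold, 95% interval 0.481 to 0.819, limma adjusted p = 0.181). In AF-high cells it was at 44.86, 28.47, 45.24, 42.93 and 44.38 TPM. AF-high 2 alone lay inside the AF-low range; against AF-low the AF-high difference was 0.49 ± 0.16 (1.4-fold, adjusted p = 0.479). PLX5622 libraries had 44.57, 40.79, 41.2 and 43.01 TPM, all above AF-low, with a difference of 0.55 ± 0.17 (1.46-fold, adjusted p = 0.167). The PLX5622 and AF-high groups differed by 0.06 ± 0.15, and AF-high and young by -0.19 ± 0.16 (adjusted p = 0.89 and 0.713). Beside this, border-associated macrophage markers were highest in the AF-low libraries, with sums of 590.6, 457.7 and 455.4 TPM in AF-low 1 to 3. Microglial markers summed to 6587, 9170 and 8424 TPM in the same libraries, against 10080 to 11700 TPM in young and 8620 to 9271 TPM in PLX5622 libraries. The part of either in the Ctso differences was not tested.

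The cysteine exopeptidases trim single residues or dipeptides from peptide ends, and these 3 genes had their highest group mean in PLX5622 cells, with little spread between libraries for Ctsc and Ctsh. Cathepsin C activates the serine proteases of granulocytes and is read in microglia as a marker of some activated states. Ctsc was at 331.3, 308, 330.5 and 335.2 TPM in PLX5622 1 to 4. In AF-high 1 to 5 it was at 229.9, 230.4, 267.9, 325.6 and 253.2 TPM, in AF-low 1 to 3 at 254.4, 269 and 295.2 TPM, and in young 1 to 3 at 241.1, 252.3 and 263.4 TPM. The PLX5622 libraries lay above all AF-low and all young ones, and AF-high 4 alone overlapped them. The PLX5622 difference was 0.33 ± 0.11 from AF-high (1.26-fold, adjusted p = 0.172), 0.26 ± 0.13 from AF-low (1.2-fold, 0.371) and 0.37 ± 0.13 from young (1.29-fold, 0.642; all limma). When libraries were weighted by their scatter, the difference from young was 0.35 and passed (limma with array weights, adjusted p = 0.0251). This weighted fit called 420 of all 13175 genes in that comparison, against 12 without weights. Ctsh was at 832.3, 826.1, 834.1 and 881.1 TPM in PLX5622 libraries, against 795.9, 702.8 and 695.6 TPM in AF-low and 706.9, 727.8 and 690.5 TPM in young libraries. These groups did not overlap either, but AF-high 4 (969.1 TPM) exceeded every PLX5622 library. The PLX5622 difference in Ctsh was 0.19 ± 0.12 from AF-high, 0.21 ± 0.14 from AF-low and 0.25 ± 0.14 from young (adjusted p = 0.457, 0.509 and 0.972). Ctsz, the carboxypeptidase cathepsin Z, ranged from 250.8 to 545.2 TPM with both ends in AF-high libraries, and its 6 differences lay between 0.04 and 0.19 (adjusted p at least 0.803). Complete separation of PLX5622 above AF-low libraries was seen for 3 members, Ctsc, Ctsh and Ctso, and for 5.31% of all genes; below AF-low it was seen for 0 members and 10.9% of genes. PLX5622 libraries lay wholly above young ones for 2 members (Ctsc and Ctsh; 3.28% of genes) and wholly below for Lgmn (12.7%). AF-low libraries lay wholly below young ones for Ctso and Lgmn, and wholly above for 0 members (8.25% of genes). The other 3 pairs of groups overlapped for all 10 members. Among all genes, AF-high was wholly above AF-low for 1.05% and below for 1.71%, wholly above young for 2.63% and below for 5.15%, and PLX5622 was wholly above AF-high for 2.37% and below for 4.18%.

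Cathepsin D is the main aspartic protease of lysosomes, and Ctsd lies on chromosome 7 from 142375911 to 142388038 on the minus strand of GRCm38. It was at 2517, 2524, 2509 and 3264 TPM in PLX5622 libraries and at 2836, 3357, 2739, 3072 and 2853 TPM in AF-high libraries. AF-low libraries had 1938, 2950 and 2186 TPM and young ones 2453, 2745 and 2862 TPM. AF-low 1 and 3 were the lowest of the 15, whereas AF-low 2 lay inside the AF-high range. AF-high exceeded AF-low by 0.35 ± 0.15 (1.28-fold, limma adjusted p = 0.571) and young by 0.14 ± 0.15 (adjusted p = 0.776). The difference from AF-low was 0.22 without AF-low 1 and 0.53 without AF-low 2, and did not pass in either case.

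These values are uncertain, because the gene model Gm49369 (chromosome 7, 142371096 to 142382667, minus strand) shares exons with Ctsd and reaches past its 3′ end. Of the 1023 exon bases of Gm49369, 808 (79%) are also exon bases of Ctsd, and they make up 34.4% of those of Ctsd. A quantifier has to divide the reads of such bases between both genes. Gm49369, named here after its values were seen, was at 7.677, 8.145, 12.64 and 12.23 TPM in PLX5622 1 to 4, against 19.64, 2065, 1381, 166.1 and 515.7 TPM in AF-high 1 to 5. It was at 488.1, 67.26 and 131.5 TPM in AF-low 1 to 3, against 9.392, 7.497 and 3.802 TPM in young 1 to 3. All 8 old gated libraries were above all 7 others, and AF-high 2 and 3, the libraries that deviated most over all genes, had the highest values. The share of all genes with this split was not counted. By pairs of groups, PLX5622 lay wholly below AF-high for 4.18% and below AF-low for 10.9% of all genes. AF-high lay wholly above young for 2.63% and AF-low above young for 8.25%. The PLX5622 difference in Gm49369 was -4.99 ± 1.01 from AF-high, with adjusted p = 0.0411 (limma), and -3.91 ± 1.15 from AF-low (adjusted p = 0.151). Of all genes, 0.471% fell and 0.159% rose in PLX5622 against AF-high. The call against AF-high was lost under 11 of the 15 leave-one-out fits. These left out AF-high 2, 3 or 5, AF-low 3, or any 1 of the young or PLX5622 libraries, with adjusted p from 0.0503 to 0.155; it was also lost with a replicate block (0.143) and with only both groups in the fit (0.0917) or young 1 and 2 left aside (0.094). AF-high exceeded young by 5.53 ± 1.1 (adjusted p = 0.0933) and AF-low exceeded young by 4.45 ± 1.22 (adjusted p = 0.193). Without AF-high 1, the lowest of its group, the difference of AF-high from young was 6.55 and passed (adjusted p = 0.00565).

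When the TPM of Gm49369 was added to that of Ctsd, chosen as an alternative once the values had been seen, the joint level was 2714 ± 375 TPM in PLX5622, 3801 ± 1015 in AF-high, 2587 ± 376.3 in AF-low and 2694 ± 208.1 TPM in young cells (SD). The AF-high libraries then had 2856, 5421, 4120, 3238 and 3369 TPM. The difference of AF-high from young changed from 0.14 for Ctsd alone to 0.46 ± 0.19 (95% interval 0.06 to 0.86, limma adjusted p = 0.384), and that from AF-low from 0.35 to 0.53 ± 0.19 (adjusted p = 0.495). The PLX5622 difference from AF-high was -0.46 ± 0.17 for the joint level (adjusted p = 0.221), against -0.14 ± 0.14 for Ctsd alone. None of the 6 joint differences passed. How many of the reads given to Gm49369 arose from Ctsd cannot be read from TPM values.

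**Figure D3:**
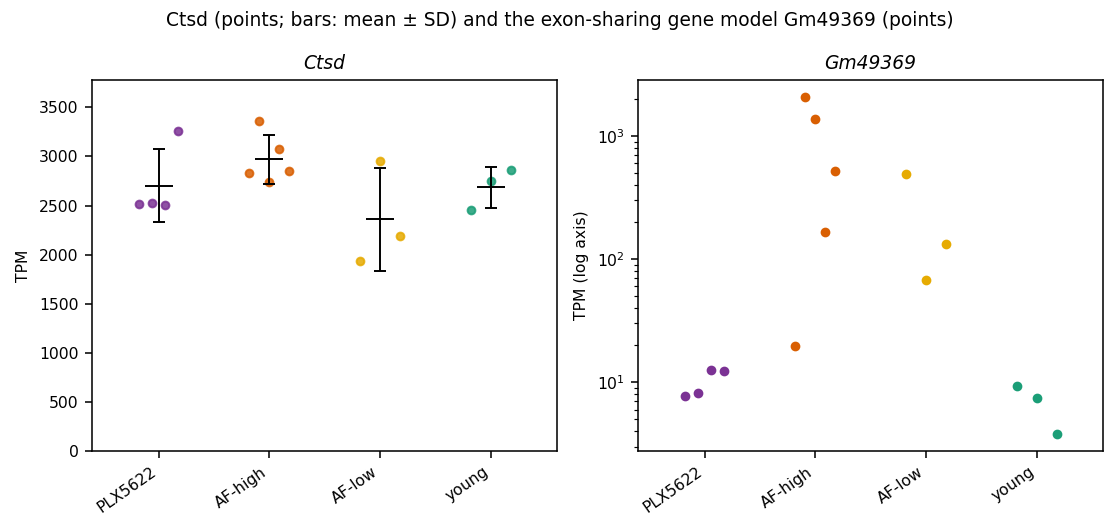
TPM of Ctsd (left, linear axis from 0, bars mean and SD) and of the exon-sharing gene model Gm49369 (right, log axis) in each library of the 4 groups. Ctsd spans 1938 to 3357 TPM, while Gm49369 spans 3.802 to 2065 TPM and is above 19 TPM in the AF-high and AF-low libraries only.

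Other listed genes overlap 4 further members. On the opposite strand, Ctsa overlaps Neurl2 and Pltp, Ctsb overlaps Fdft1, and Ctsz overlaps the end of Nelfcd by 10 bases. These were at most at 2.961, 30.87, 13.74 and 90.54 TPM in any library. Ctss holds the pseudogene Hmgb1-ps5, at most at 37.97 TPM, in an intron. The sources used here do not say whether strand was used in assigning reads.

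Cathepsin A is a serine carboxypeptidase that also holds the glycosidases neuraminidase 1 and beta-galactosidase in a stable complex. Ctsa (chromosome 2, 164832873 to 164841032, plus strand) was at 361.5, 321.2, 309.2 and 421.3 TPM in PLX5622 libraries, against 550.1, 474.6, 372.6, 669.7 and 657.5 TPM in AF-high libraries. AF-high 3 lay within the PLX5622 range and the other 4 above it. The difference was -0.60 ± 0.18 (0.659-fold, 95% interval 0.505 to 0.861, limma adjusted p = 0.124), the largest of any member between PLX5622 and AF-high. It passed when libraries were weighted by scatter (-0.74, adjusted p = 0.0312) and when AF-high 2, AF-high 3 and AF-low 1, chosen because earlier results of these data showed them to stand apart, were left aside (-0.83, adjusted p = 0.037). In this comparison the weighted fit called 441 of all 13175 genes and the fit without these libraries 295, against 83 in the main fit. AF-high 2 and 3 have the lowest Ctsa of their group, so leaving them out widens this difference by construction. AF-low libraries had 393.2, 372.6 and 507.4 TPM and young ones 358.7, 525.5 and 399.3 TPM, each range overlapping those of all other groups. AF-high exceeded young by 0.33 ± 0.20 (adjusted p = 0.562), and PLX5622 differed from AF-low by -0.26 ± 0.21 and from young by -0.27 ± 0.21 (adjusted p = 0.588 and 0.979). Of the partners of cathepsin A, 0 of 3 passed in any comparison. Neu1 was at 13.64 ± 1.844 TPM in PLX5622 and 12.01 ± 3.584 TPM in AF-high cells, and Glb1 at 16.57 ± 1.954 TPM in PLX5622 and 17.09 ± 8.075 TPM in AF-high cells.

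Legumain cuts after asparagine and helps to process other cathepsins. Lgmn (chromosome 12, 102394084 to 102439813, minus strand) had its highest group mean in young cells and the smallest scatter of all members (SD within groups 0.1 log2 units). It was at 721, 741.9, 687.5 and 768.6 TPM in PLX5622 1 to 4, and at 732.7, 857.8, 693.7, 806.2 and 730.4 TPM in AF-high 1 to 5. AF-low 1 to 3 had 630.1, 677.6 and 717.4 TPM, and young 1 to 3 had 813.2, 946.9 and 894.9 TPM. Young libraries lay above all PLX5622 and all AF-low libraries, and AF-high 2 alone of the old cells reached their range. The AF-low difference from young was -0.39 ± 0.12 (0.763-fold, 95% interval 0.638 to 0.913, limma adjusted p = 0.225). AF-high differed from young by -0.21 ± 0.11 (0.863-fold, adjusted p = 0.504) and PLX5622 by -0.28 ± 0.11 (0.826-fold, adjusted p = 0.899). The PLX5622 difference passed when libraries were weighted by scatter (-0.31, limma adjusted p = 0.0378), in a fit that called 420 of all 13175 genes.

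Libraries moved their cathepsins to different degrees. AF-high 4 held 10 of 10 members at or above their means over the 15 libraries and PLX5622 4 held 9, whereas AF-low 1 had 9 and AF-high 3 had 8 members below. AF-low 1 also had the lowest summed microglial markers (6587 TPM) and the highest summed endothelial markers (147.7 TPM) of the 15 libraries. The part of these in its member levels was not tested. The members' mean centred log2 level was 0.22 in AF-high 4 and 0.19 in PLX5622 4, against -0.27 in AF-low 1, -0.17 in AF-high 2 and -0.15 in AF-high 3. Scatter within a group had a median SD of 0.21 log2 units over the 10 members and 0.34 over all genes tested. Most members lie far above the filter on low values, and these medians were not matched for level. Ctsc and Ctsh had the most alike profiles of any members (root mean square difference 0.117 log2 units over 15 libraries), and each was the other's nearest. Lgmn was the nearest member to Ctsd (0.183) and to Ctsb (0.193), and Ctss the nearest to Ctsl, Ctso and Ctsz (0.198 for each). Ctsa was least like the others, at 0.426 from both Ctsc and Ctso. Outside the 10, the genes nearest to the members' mean profile were Npc2, a lysosomal cholesterol-binding protein gene, at 0.082, Erp29 at 0.106, the ribosomal protein gene Rpl4 at 0.107, Supt20 at 0.108 and the lysosomal thioesterase gene Ppt1 at 0.115. This mean profile ran only from -0.27 to 0.22, and genes that vary little also come near it.

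**Figure D4:**
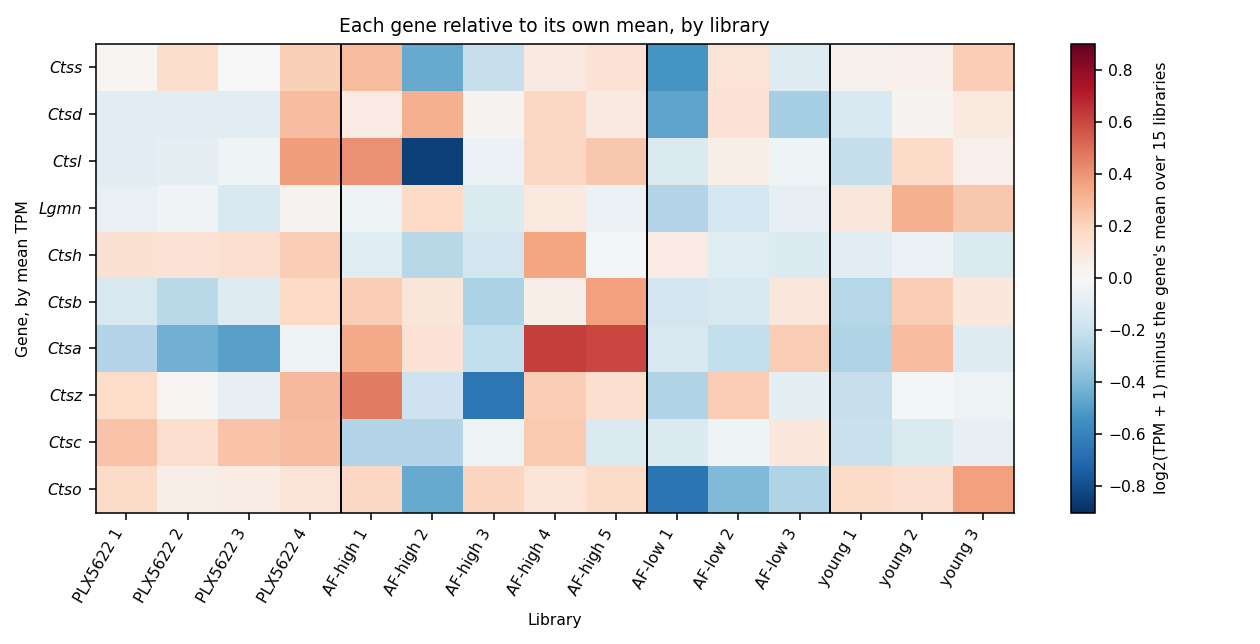
Each gene's log2(TPM + 1) minus its mean over the 15 libraries (red above, blue below), with genes as rows by mean TPM and libraries as columns by group. AF-low 1 is below the mean for 9 of 10 genes, and AF-high 2 shows the lowest Ctsl of all libraries.

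Lysosomal genes are known targets of the transcription factor TFEB and its relatives, which bind the letters CACGTG within a longer lysosomal motif. RefSeq start sites (GRCm38.p6) were at hand for 8 of the 10 members, all but Ctsb and Ctsh, as 300-base windows from 250 before to 50 bases after the start. These 6 letters, which read the same on both strands, were found for 4 of these 8 members, Ctsa, Ctsd, Ctsl and Lgmn, against 11.3% of the 9744 tested genes with a window and 8.09% of all 27025 genes with one. Starts named below are those of RefSeq. The GENCODE spans given above reach further upstream, and all matches but the first Ctsd match lie within them. Each match is given with 12 bases on either side (5 before the first Ctsd match, at the edge of its window), the 6 letters being in capitals.
Ctsa, chr2:164833749-164833778, plus strand, 12 bases before a second start site: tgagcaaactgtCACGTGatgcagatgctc
Ctsa, chr2:164833766-164833795, plus strand, 5 bases past that site: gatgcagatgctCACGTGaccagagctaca
Ctsd, chr7:142388055-142388077, minus strand, 245 bases before the start: tccccCACGTGacctgtatccag
Ctsd, chr7:142387908-142387937, minus strand, 98 bases before the start: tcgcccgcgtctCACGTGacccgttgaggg
Lgmn, chr12:102439124-102439153, minus strand, 49 bases before a second start site: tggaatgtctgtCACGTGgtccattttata
Ctsl, chr13:64370739-64370768, minus strand, 236 bases before the start: ggcgttagaagcCACGTGctgatctaaatt
A longer form, the 6 letters with GT before and AC after them, was in 0 of the 8 members and in 0.37% of the 27025 genes. Some matches carry GT before or AC after the 6 letters, but none carries both. Only this exact longer form was searched, and near forms of it were not counted. A match is a run of letters and shows no binding. In PLX5622 against AF-high cells the differences of the 4 genes with a match were -0.60 (Ctsa), -0.14 (Ctsd), -0.06 (Lgmn) and 0.05 (Ctsl). Of 4 measured regulators of lysosomal genes, 0 passed in any comparison. Tfe3, a relative of Tfeb, was the highest at 83.65 ± 10.44 TPM in PLX5622 and 118.9 ± 29.3 TPM in AF-high cells (difference -0.48 ± 0.17, limma adjusted p = 0.202). In AF-low cells Tfe3 was at 121.1 ± 7.1 TPM (PLX5622 minus AF-low -0.54 ± 0.20, adjusted p = 0.235). Zkscan3, a repressor of lysosomal genes, was at 39.11 ± 3.634 TPM in PLX5622 and 43.71 ± 9.742 TPM in AF-high cells.

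Of the endogenous inhibitors, Cst7 rose in PLX5622 against young cells, groups that differ in both age and treatment. Cystatins bind cysteine cathepsins and block them, and cystatin F, encoded by Cst7, is the one that works inside the endolysosomes of immune cells. Of 10 inhibitor genes 5 were listed and tested. In PLX5622 against young cells 1 of 5 rose and 0 fell (all genes 0.0607% and 0.0304%), beside a median of 0.13 for the 5 and -0.11 for all genes; 0 of 5 passed in each of the other 5 comparisons. Cst7 was at 62.65, 48.91, 43 and 49.8 TPM in PLX5622 1 to 4, against 7.045, 8.019 and 12.88 TPM in young 1 to 3. It rose by 2.36 ± 0.33 on the log2 scale in PLX5622 over young cells (5.15-fold, 95% interval 3.16 to 8.39, limma adjusted p = 0.0104). The call was lost without young 1 (2.21, adjusted p = 0.0723), young 2 (2.29, 0.093) or PLX5622 1 (2.26, 0.0647), and with young 1 and 2 left aside (1.9, adjusted p = 1), where 1 young library is taken to vary like the other groups. AF-high libraries had 41.59, 20.68, 22.74, 19.51 and 13.25 TPM and AF-low ones 26.03, 14.92 and 11.48 TPM, all below the lowest PLX5622 library. The PLX5622 difference was 1.17 ± 0.29 from AF-high (2.25-fold, adjusted p = 0.0751) and 1.56 ± 0.33 from AF-low (2.95-fold, adjusted p = 0.0858). The difference from AF-high passed without AF-high 1 (1.39, adjusted p = 0.0294) or AF-low 1 (1.17, 0.0496), and that from AF-low without AF-high 1 (1.56, 0.0451). With libraries weighted by scatter both passed (1.33, adjusted p = 0.0212, from AF-high and 1.73, 0.0424, from AF-low). The weighted fit called 441 and 89 of all 13175 genes in these comparisons. AF-high exceeded young by 1.2 ± 0.32 (2.29-fold, adjusted p = 0.187), with every AF-high library above every young one, and AF-low exceeded young by 0.80 ± 0.35 (adjusted p = 0.388).

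Cst3, which encodes the secreted inhibitor cystatin C, stood above all members, at 12020 to 24830 TPM. It was at 16790 ± 1740 TPM in PLX5622, 19100 ± 5692 in AF-high, 15940 ± 3398 in AF-low and 18720 ± 845.6 TPM in young cells. Set against the sum of the 7 cysteine cathepsins of the same library, its ratio was 1.89 ± 0.0728 in PLX5622, 2.25 ± 0.327 in AF-high, 2.06 ± 0.199 in AF-low and 2.17 ± 0.0994 in young cells (SD). AF-high 2, AF-high 3 and AF-low 1 had the lowest Cst3 of the 15 libraries (13360, 12740 and 12020 TPM), and also the 3 lowest sums of the 10 members (10910, 11060 and 9440 TPM). Cstb, the intracellular cystatin B, was at 275.3, 250.7 and 368.8 TPM in AF-low 1 to 3, against 143.6, 185.7 and 158.4 TPM in young 1 to 3 (difference 0.86 ± 0.35, limma adjusted p = 0.34).

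Among known substrates, the invariant chain gene Cd74, whose product cathepsin S degrades on MHC class II, fell in PLX5622 against AF-low cells, the 1 call among 7 genes in 6 comparisons (0.144% of all genes fell in this one). Cd74 was at 58.14, 51.77, 42.97 and 59.07 TPM in PLX5622 1 to 4, against 150.7, 123.1 and 134 TPM in AF-low 1 to 3. The difference was -1.35 ± 0.14 (0.393-fold, 95% interval 0.317 to 0.486, limma adjusted p = 0.00071; 0.0674 with only both groups in the fit). AF-low cells also had more Cd74 than young cells (64.46, 78.22 and 75.36 TPM; 0.89 ± 0.15, adjusted p = 0.056), and this difference passed in 6 of 25 alternatives, among them without AF-high 2 (0.0378), AF-low 2 (0.0237) or young 3 (0.0424). PLX5622 cells had less than AF-high cells (70.06 to 90.7 TPM; -0.58 ± 0.13, adjusted p = 0.0541), and this passed in 5 of 25, among them without AF-high 4 (0.0408), AF-low 1 (0.0404) or AF-low 2 (0.0484). PLX5622 against young was at -0.45 ± 0.14 (adjusted p = 0.53). Border-associated macrophages also carry Cd74, and their summed markers were lowest in PLX5622 and highest in AF-low libraries. Of 9 such markers 3 fell in PLX5622 against AF-low (0.144% of all genes) and 1 in PLX5622 against AF-high (0.471% of all genes); their part in the Cd74 difference was not tested. The median difference of the 7 substrate genes was -0.38 in PLX5622 against AF-high (all genes -0.02), -0.21 against AF-low (all genes -0.05) and -0.2 against young (all genes -0.11). These 3 comparisons share the PLX5622 libraries. Grn, whose product progranulin is cut into granulins in lysosomes, was at 438.8 ± 24.7 TPM in PLX5622, 482.7 ± 100.5 in AF-high, 451.8 ± 75.36 in AF-low and 541.4 ± 22.58 TPM in young cells. Tlr7, an endosomal receptor for RNA that cathepsins trim, was at 251.9 ± 49.3 TPM in PLX5622 and 398.2 ± 124.8 TPM in AF-high cells (-0.63 ± 0.19, adjusted p = 0.124). In AF-low cells it was at 360.1 ± 8.939 TPM (PLX5622 minus AF-low -0.53 ± 0.21, adjusted p = 0.278).

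**Figure D5:**
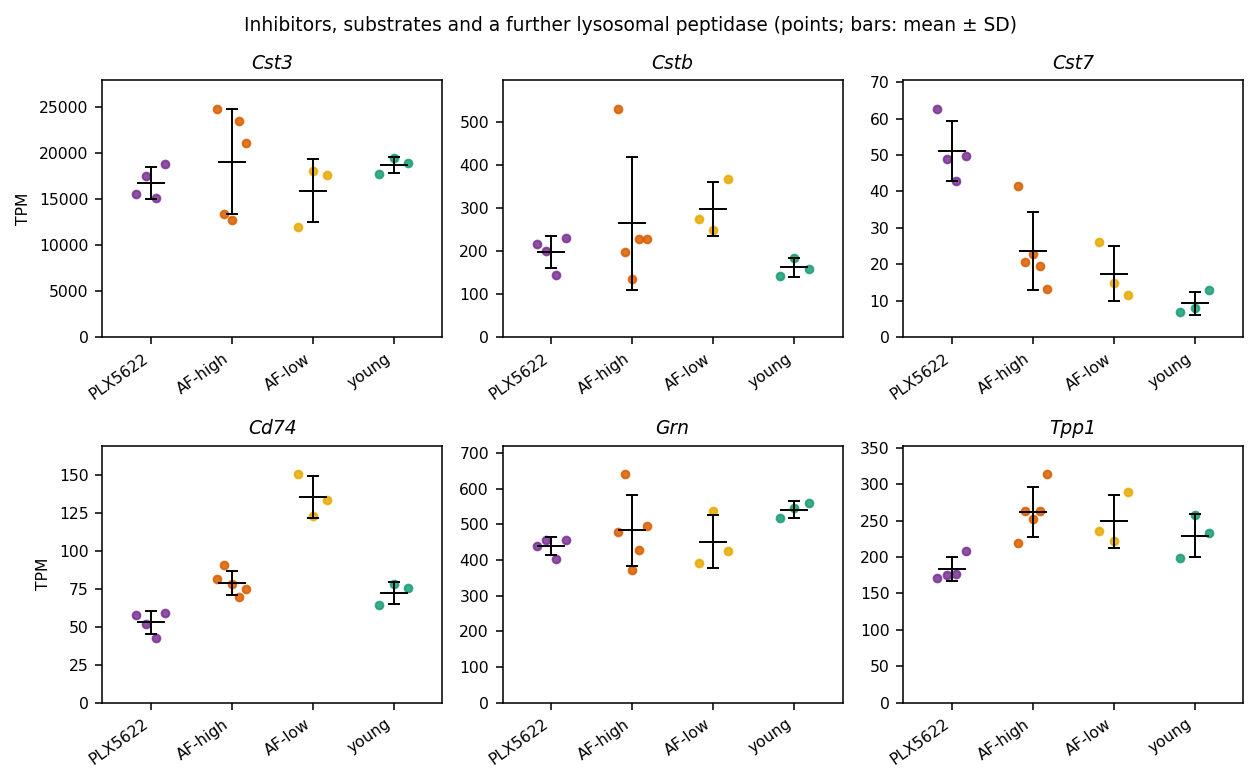
TPM of the inhibitors Cst3, Cstb and Cst7, the substrates Cd74 and Grn, and the tripeptidyl peptidase Tpp1 in each library of the 4 groups (axes from 0; bars mean and SD). Cst7 is highest in the 4 PLX5622 libraries (43 to 62.65 TPM), and Cd74 is highest in the 3 AF-low libraries (123.1 to 150.7 TPM).

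Further lysosomal peptidases and the sorting machinery gave 0 calls. Of 5 further peptidases 4 were tested. Tpp1, the tripeptidyl peptidase lost in a ceroid lipofuscinosis of children, was at 171.9, 175.9, 177.3 and 208.5 TPM in PLX5622 libraries, against 218.7, 262.9, 252.1, 263.1 and 313.7 TPM in AF-high libraries. No PLX5622 library reached the AF-high range (-0.51 ± 0.13, 0.703-fold, limma adjusted p = 0.0763). With libraries weighted by scatter the adjusted p was 0.0238 (limma), in a fit that called 441 of all 13175 genes. The PLX5622 difference in Tpp1 was -0.43 ± 0.15 from AF-low and -0.32 ± 0.15 from young (adjusted p = 0.191 and 0.934). Prcp, a lysosomal carboxypeptidase, was at 91.31 ± 10.49 TPM in PLX5622 and 92.88 ± 16.03 TPM in AF-high cells. Of the 12 sorting genes, which include the receptors that carry newly made cathepsins by their mannose 6-phosphate tags, 12 were tested. The cation-dependent receptor gene M6pr was at 132 ± 6.553 TPM in PLX5622, 152.1 ± 18.76 in AF-high, 132.7 ± 0.2832 in AF-low and 132.3 ± 14.73 TPM in young cells. Vps26a, of the retromer that returns these receptors, was at 150.3 ± 29.32 TPM in AF-low and 113.9 ± 5.615 TPM in young cells (0.38 ± 0.16, adjusted p = 0.35). Of 14 other cathepsin genes 2 were listed: Ctsk, the collagen-cleaving cathepsin K, at 0.4131 to 3.129 TPM, and Cts8, of the rodent placental group, at 1.192 to 3.576 TPM.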

How the data were processed

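Microglia sorted from mouse brain gave 15 RNA libraries, made with an amplification kit for low input, per the labels' protocols. The values were deposited as TPM per gene. The submitters' processing notes name FastQC 0.11.8, Salmon 1.0.0, DESeq2 and the build GRCm38 (mm10), without their settings. TPM values keep no read depth, so no counting interval can be given; the 13834 listed genes summed to between 956489 and 963145 TPM in a library, no value was 0, and no pair of libraries was identical. Groups came from the labels.

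Here, genes with at least 1 TPM in at least 3 libraries (13175) were tested with limma 3.58.1 in R 4.3.3 on log2(TPM + 1), with 4 group means over 15 libraries (11 residual degrees of freedom) and moderated variances with a trend. Fold changes are on this scale, which understates the change of low genes. Each of 6 comparisons was adjusted by Benjamini-Hochberg, with a threshold of 0.05 and 95% intervals. The procedure was tested on simulated data in which each gene had the same spread in all 4 groups. That simulation does not cover the unequal spread of the groups seen here. Gene positions are GENCODE M21. The members and the lists of related genes were chosen with earlier results of these data known. Named were, per comparison, the 2 members with the largest rises and the 2 with the largest falls, list genes that passed, and the 2 highest of each list. Alternatives covered pseudocount, filter, scaling, library weights, replicate block, groups in the fit and libraries left out.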

Additional observations from a re-analysis of the deposited data

Results flagged for a closer look

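In groups of 4 or more libraries, a library was looked at again where its gap to the nearest other value, divided by the group's range, was above Dixon's 95% critical value. The 10 genes and their sum were each looked at in the AF-high and PLX5622 groups, which gave 22 tests. The rule was met in 4 of these, and no explanation was tested. Chance gives about 1 in 20 for a single test. These tests share libraries and are not independent, so 4 of 22 cannot be weighed against that share. In 3 cases the library was PLX5622 4. Ctsd was at 3264 TPM there, against 2509 to 2524 TPM in the other 3 PLX5622 libraries (gap over range 0.98). Ctsl was at 1414 TPM in PLX5622 4, against 1021 to 1061 TPM in the others (0.897), and Ctsh at 881.1 TPM, against 826.1 to 834.1 TPM (0.855). PLX5622 4 also had the highest sum of the 10 genes, whereas its deviation over all genes (0.264 log2 units) was close to that of the other PLX5622 libraries (0.249 to 0.257). In the fourth case Ctso was at 28.47 TPM in AF-high 2, against 42.93 to 45.24 TPM in the other 4 AF-high libraries (0.862). AF-high 2 also had the lowest Ctsl and the largest deviation over all genes.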

How the results depend on the processing

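The members stayed uncalled in every comparison under most alternatives. With array weights 1 member passed in PLX5622 against AF-high (Ctsa), beside 441 of all 13175 genes. With these weights 2 members passed in PLX5622 against young (Ctsc and Lgmn), beside 420 of all genes. In a fit without 3 old libraries (AF-low 1 and AF-high 2 and 3), Ctsa alone (1 member) passed in PLX5622 against AF-high, beside 295 of all genes. Leaving out single libraries gave 0 members in all 6 comparisons. Of 1152 values of 46 differences of single genes under 26 alternatives, 1098 kept direction and side of the threshold, 19 lost the call, 24 gained one and 11 turned sign. The causes were not tested. Most of the 46 were not called in the main fit and had no call to lose. Over single libraries left out, Gm49369 in PLX5622 against AF-high lost its call in 11 of 15 fits. Cst7 in PLX5622 against young lost it in 3 of 15, and Cd74 in PLX5622 against AF-low in 0 of 15.

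Quantile normalization gave 0.02 for Ctsc in AF-high minus AF-low, -0.03 for Ctsc in AF-low minus young, and -0.02 for Ctss and 0.19 for Ctsb in PLX5622 minus AF-low. Ctsh in AF-low minus young was -0.02 with the 3 old libraries left aside, and ran from -0.02 to 0.08 when single libraries were left out. Ctsb in PLX5622 minus AF-low was 0.07 with median centring and ran from -0.1 to 0.07 over single libraries left out.

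Counts out of 13175 tested genes cannot be set directly beside counts out of 10 members. Counts of genes called over the whole table also moved with the alternatives. Without single libraries they ran from 0 to 1 (AF-high against AF-low, 0 with all libraries), 0 to 56 (AF-high against young, 0), 0 to 182 (AF-low against young, 6), 1 to 205 (PLX5622 against AF-high, 83), 2 to 398 (PLX5622 against AF-low, 19) and 1 to 52 (PLX5622 against young, 12). Array weights gave 129 genes in AF-high against young, 44 in AF-low against young, 441 in PLX5622 against AF-high, 89 in PLX5622 against AF-low and 420 in PLX5622 against young. Quantile normalization gave 1, 11, 4 and 22 genes in AF-high against young, AF-low against young, PLX5622 against AF-low and PLX5622 against young. Median centring gave 7 in AF-high against young, 17 in AF-low against young and 4 in PLX5622 against AF-low. With only both groups in the fit, the counts were 0 in AF-low against young, 7 in PLX5622 against AF-high, 0 in PLX5622 against AF-low and 65 in PLX5622 against young. With the 3 old libraries left aside they were 1, 295, 45 and 30 in these 4 comparisons, and with young 1 and 2 left aside 0, 3, 3 and 0.

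With the replicate number as a block, the counts in these 4 comparisons were 0, 0, 3 and 3. Deviations of same-numbered libraries correlated at -0.08 to 0.14. Scatter of single libraries can hide a shared animal in such values, so they cannot decide whether same-numbered libraries were paired. The sources used here do not say it either. Depth is unknown in TPM, and 3 libraries in 2 of the groups limit the precision.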
